A study of Mus musculus with 8 samples.

Results

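The pocket proteins, their DP partners and the MuvB complex were examined through 8 genes, chosen by symbol from the 23361 genes of the expression table: Rb1, Rbl1, Rbl2, Tfdp1, Tfdp2, Lin9, Lin54 and Mybl2. All 8 were found, and all 8 passed the filter on low values (3 or more samples at 1 FPKM or above), as did 14357 genes in all. RNA was sequenced from 5 cancers of the gastric squamous-columnar junction (SCJ), the border between the squamous forestomach and the glandular stomach, and from the same junction of 3 control stomachs. The cancers were labelled Trp53-/-Rb1-/- and came from mice with loxP-flanked Trp53 and Rb1 alleles, an inducible Cre inserted at Lgr5 (Lgr5-eGFP-IRES-CreERT2) and the Ai9 tdTomato reporter. The mice were given tamoxifen as young adults, and tumors were dissected along their tdTomato signal many months later. The controls were labelled wild type and came from mice of paired age; the study describes control mice both with and without tamoxifen, and which these were is not stated. Cre acts from the Lgr5 locus, so only Lgr5+ cells and their progeny lose the floxed genes, and stromal, vascular and immune cells of a tumor keep them. Whether the 5 tumors came from separate mice is not stated, so p-values measure the spread between these samples.

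The pocket proteins are the brakes of the cell division cycle. Rb1 encodes pRb, which binds activating E2F transcription factors and holds their target genes silent until cyclin-dependent kinases phosphorylate it. Rbl1 (p107) and Rbl2 (p130) are its relatives, which bind the repressive E2F factors. Tfdp1 (DP1) and Tfdp2 (DP2) are the partner subunits with which E2F factors bind DNA. In resting cells Rbl2 or Rbl1, a repressive E2F and a DP protein join the MuvB core, of which Lin9 and Lin54 are subunits, to form the DREAM repressor. In dividing cells the same core takes up B-MYB, encoded by Mybl2, and later FOXM1, to switch on genes of mitosis.

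All values are FPKM, fragments counted per kilobase of a transcript and scaled by library, so levels can be compared between genes of different length. They are rounded to whole numbers, and 1 step is a large part of the value of most of these genes. Apart from Tfdp1, the 8 genes lay between 2 and 14 FPKM in every sample. FPKM summed to between 403569 and 573858 in the cancers and to between 887141 and 992550 in the controls, where the 10 most abundant genes took 39.3% to 44.3%, against 11.1% to 19.6% in the cancers. Read depth is unknown. A fold change is on the log2(FPKM + 1) scale throughout, which understates changes of low genes, and tests across genes used limma with Benjamini-Hochberg adjustment over the 14357 genes tested. In bulk tissue, fewer cells of a type and less RNA per cell cannot be told apart.

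Of the 8 genes, Tfdp1 rose and Rb1 and Tfdp2 fell in the cancers, and 5 did not pass the threshold. With libraries rescaled to equal sums, Tfdp1 still rose, Rb1 was not called and the sign of Tfdp2 turned. Rbl1, Lin9 and Mybl2 were then called higher, so that 4 were higher and 0 lower, where 50% of all tested genes were called higher and 3.68% lower. With the deposited FPKM, the count of 3 of 8 lies near the share of all tested genes called, 34.5%, with 16.2% higher and 18.3% lower. The groups did not overlap for Tfdp1 and Rb1, 2 of 8, while 34.1% of all tested genes had groups without overlap (14.4% higher, 19.8% lower). The median log2 fold change of the 8 genes was 0.053, against -0.038 for all tested genes. The DP partners were the family with called members in both directions.

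Promoter sequences of Rbl1, Tfdp1, Rbl2 and Mybl2 are printed below, and a link between their motifs and the directions of change was not tested. RefSeq promoter windows (GRCm38.p6, 250 bases before to 50 after a start) were found for 6 of the 8 genes, Rbl1, Rbl2, Tfdp1, Tfdp2, Lin54 and Mybl2. The E2F motif was searched on both strands as TTTCCCGC, TTTCGCGC, TTTGCCGC or TTTGGCGC. It was found in Rbl1 and in Tfdp1, 2 of the 6 genes, while 2.60% of all 27025 genes with a window and 2.26% of all windows held it. Among 21 genes with a window that were listed as E2F targets of DNA replication, 9 (42.9%) held it. Such a list favours the motif, so this share is no independent support. The 250 bases upstream of the start are printed 5′ to 3′ on the gene's own strand. Capitals mark the E2F motif in Rbl1 and Tfdp1. In Rbl2 they mark the motif of the cell cycle homology region (CHR, to which LIN54 binds), searched as TTTGAA or TTCGAA on both strands. In Mybl2 they mark GGCGGGA, a shorter E2F-type motif that was added after the sequences had been seen.
Rbl1 (chr2:157204535-157204784, minus strand): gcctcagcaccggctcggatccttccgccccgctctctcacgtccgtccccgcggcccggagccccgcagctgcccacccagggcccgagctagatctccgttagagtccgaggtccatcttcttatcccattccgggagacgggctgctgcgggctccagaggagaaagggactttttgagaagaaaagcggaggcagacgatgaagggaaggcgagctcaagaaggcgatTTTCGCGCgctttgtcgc
Tfdp1 (chr8:13338501-13338750, plus strand): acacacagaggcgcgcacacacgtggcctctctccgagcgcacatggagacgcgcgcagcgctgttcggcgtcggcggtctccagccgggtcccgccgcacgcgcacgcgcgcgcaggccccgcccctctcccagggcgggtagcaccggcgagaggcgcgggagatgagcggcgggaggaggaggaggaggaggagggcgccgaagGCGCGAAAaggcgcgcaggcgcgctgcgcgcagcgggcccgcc
Rbl2 (chr8:91069807-91070056, plus strand): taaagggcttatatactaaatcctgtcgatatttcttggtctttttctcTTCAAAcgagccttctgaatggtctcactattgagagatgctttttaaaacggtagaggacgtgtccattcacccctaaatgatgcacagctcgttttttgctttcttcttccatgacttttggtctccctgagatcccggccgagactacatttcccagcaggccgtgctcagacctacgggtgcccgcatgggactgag
Mybl2 (chr2:163054385-163054634, plus strand): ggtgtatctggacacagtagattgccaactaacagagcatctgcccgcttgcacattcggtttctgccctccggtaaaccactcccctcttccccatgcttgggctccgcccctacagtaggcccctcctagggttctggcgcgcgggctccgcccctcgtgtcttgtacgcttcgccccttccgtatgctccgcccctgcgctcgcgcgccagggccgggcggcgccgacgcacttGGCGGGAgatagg
The same 8 letters, TTTCGCGC, occurred in both genes that held the E2F motif. They began 18 bases before the Rbl1 start on the gene's strand, and lay 43 bases before the Tfdp1 start on the opposite strand, where they read GCGCGAAA. A CHR motif was found in Rbl2 and Lin54, and in 21.7% of all genes with a window. Of 20 mitotic genes with a window that were listed as MuvB targets, 15 (75.0%) held a CHR motif and 1 (5.0%) the E2F motif. This list too was chosen by the factors that act on its genes, so the share is no independent support. The shorter GGCGGGA was found in Mybl2, Tfdp1 and Lin54, and in 12.7% of all genes with a window. Neither Tfdp2 window held any of these letters, but both (chr9:96258455-96258704 and chr9:96258998-96259247) lie inside the gene as GENCODE places it, and the start given by GENCODE was not searched. A match of letters was not tested for binding.

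Rb1, one of the deleted genes, lies on chromosome 14, 73183673 to 73325822 (minus strand, GRCm38, GENCODE M21), and its main transcript has 27 exons and 4656 bases. Its FPKM was 4, 4, 5, 6 and 4 in cancers 1 to 5 and 9, 9 and 10 in controls 1 to 3. Every cancer lay below every control, and no cancer was listed at 0. The mean was 4.6 ± 0.89 (SD, n = 5) in the cancers, 0.493 times the 9.33 ± 0.58 (SD, n = 3) of the controls. The log2 fold change was -0.90 ± 0.16 (SE, n = 5 and 3, limma adjusted p = 0.0059), and the two-sided exact permutation test gave p = 0.018, the smallest that the 56 splits of 8 samples allow. A value per gene does not separate the floxed part of the transcript from the rest. The RNA that remains therefore does not show how much intact Rb1 the samples held. The single exon of Lpar6, a lysophosphatidic acid receptor gene, lies inside Rb1 on the opposite strand, and the table gives both genes the same locus. Lpar6 had 9, 8, 16, 16 and 10 FPKM in cancers 1 to 5, against 6, 7 and 5 in controls 1 to 3 (log2 fold change 0.83 ± 0.26 SE, limma adjusted p = 0.043), so the nested genes moved in opposite directions. The labels name a directional library kit and the study's methods another system, and whether reads were assigned by strand is not given in the sources used here, so reads of Rb1 and Lpar6 may not be fully told apart.

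Rbl1, which encodes p107, lies on chromosome 2, 157145893 to 157204534. It had 8, 5, 10, 6 and 5 FPKM in cancers 1 to 5, against 5, 3 and 4 in controls 1 to 3. Cancers 1, 3 and 4 lay above every control, and cancers 2 and 5 were level with control 1. The log2 fold change of 0.62 did not pass the threshold after adjustment (standard error 0.25, 95% interval 0.036 to 1.2, limma adjusted p = 0.089).
Rbl2, which encodes p130, lies on chromosome 8, 91070057 to 91123844, and overlaps Aktip on the opposite strand. It had 8, 5, 7, 5 and 9 FPKM in cancers 1 to 5, against 8, 11 and 10 in controls 1 to 3. Cancers 2, 3 and 4 lay below every control, and the groups overlapped. Its log2 fold change was -0.47 ± 0.22 (SE, n = 5 and 3, 95% interval -0.98 to 0.032, limma adjusted p = 0.12). Aktip, which encodes an AKT-interacting protein and shares the locus of Rbl2 in the table, fell to between 15 and 18 FPKM, from 21, 26 and 24 in controls 1 to 3 (log2 fold change -0.52, limma adjusted p = 0.016). With TPM its fold change turned to 0.42 (limma adjusted p = 0.099), and with quantile normalization it was -0.26 (limma adjusted p = 0.26).

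Ratios between genes inside a library do not depend on how that library was scaled, apart from the pseudocount. In the controls Rb1 made up 40.9%, 39.1% and 41.7% of the summed FPKM of the pocket proteins. In cancers 1 to 5 it made up 20%, 28.6%, 22.7%, 35.3% and 22.2%. Rbl1 made up 13% to 22.7% of the sum in the controls and 27.8% to 45.5% in the cancers, without overlap. Rbl2 kept overlapping shares, 36.4% to 47.8% in the controls and 29.4% to 50% in the cancers. The sum itself was 22, 23 and 24 FPKM in the controls and 20, 14, 22, 17 and 18 in the cancers. The shares were chosen after the values had been seen and carry no test of their own.

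**Figure D1:**
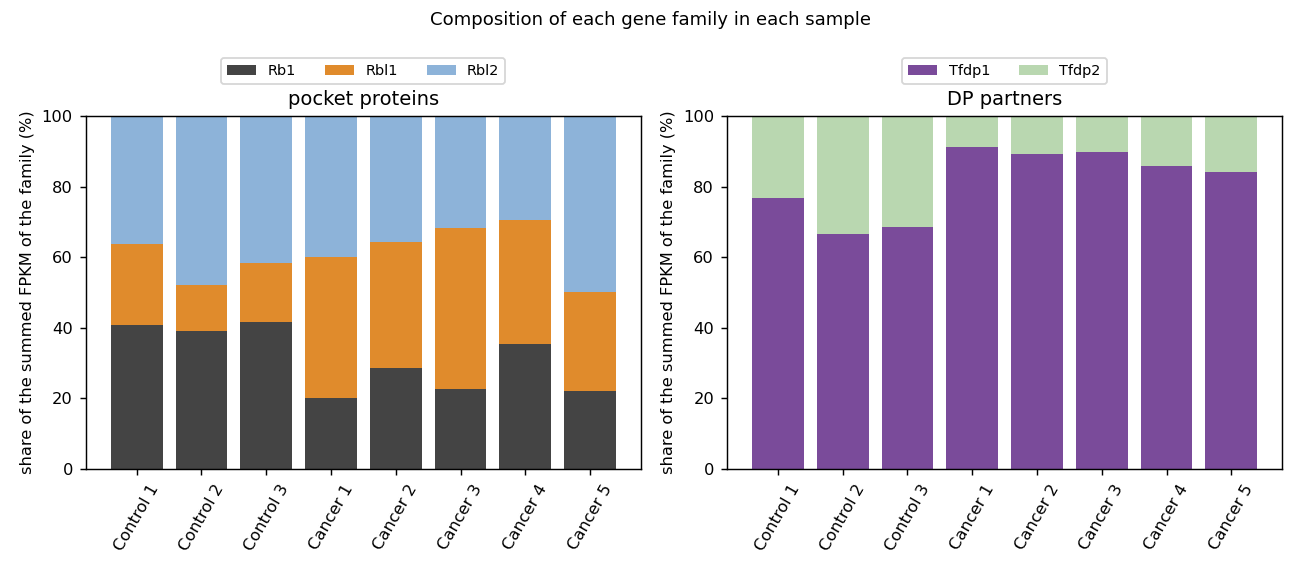
Share of each gene in the summed FPKM of its family (%), one bar per sample, for the pocket proteins (left) and the DP partners (right). The Rb1 segment ends at 39.1% to 41.7% in the controls, against 20% to 35.3% in the cancers, and the Tfdp1 segment at 66.7% to 76.7% in the controls, against 84.1% to 91.3% in the cancers.

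Of 8 gene pairs compared by two-sided exact permutation tests on these ratios, 4 passed the threshold after adjustment over the 8 pairs. The log2 ratio of Rbl1 to Rb1 was 0.45 ± 0.39 (SD, n = 5) in the cancers and -1.07 ± 0.30 (SD, n = 3) in the controls, a difference of 1.52 or 2.86-fold (exact permutation p = 0.018, adjusted p = 0.036). It was at least 0 in every cancer and below 0 in every control, so p107 transcripts were level with or above those of pRb in the cancers and below them in the controls. The ratio of Rbl1 to Rbl2 differed by 1.09, and cancer 5 overlapped the controls (exact permutation p = 0.036, adjusted p = 0.057). The ratio of Rb1 to Rbl2 differed by -0.42 (exact permutation p = 0.21, adjusted p = 0.24). Rb1 and Rbl2 had similar levels in the controls, with a log2 ratio of -0.037 ± 0.21 (SD, n = 3). The ratio of E2f1 to Rb1 was 1.08 ± 0.65 (SD, n = 5) in the cancers and -1.98 ± 0.31 (SD, n = 3) in the controls, a difference of 3.05 or 8.31-fold (exact permutation p = 0.018, adjusted p = 0.036). E2f1, the main activating E2F bound by pRb, was at 6 to 15 FPKM in the cancers and at 1 to 2 in the controls.

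Tfdp1 was the most abundant of the 8 genes in every sample. It lies on chromosome 8, 13338751 to 13378448, and had 73, 50, 61, 42 and 53 FPKM in cancers 1 to 5, against 33, 28 and 26 in controls 1 to 3. Every cancer lay above every control, with cancer 4 the lowest and cancer 1 the highest. The mean was 55.8 ± 11.8 (SD, n = 5) in the cancers, 1.92 times the 29.0 ± 3.61 (SD, n = 3) of the controls (log2 fold change 0.90 ± 0.19 SE, limma adjusted p = 0.011).
Tfdp2 lies on chromosome 9, 96196275 to 96323646, and moved the other way, with 7, 6, 7, 7 and 10 FPKM in cancers 1 to 5, against 10, 14 and 12 in controls 1 to 3. In 4 of 5 cancers it lay below every control, and cancer 5 was level with control 1. Its log2 fold change was -0.64 ± 0.18 (SE, n = 5 and 3, limma adjusted p = 0.031). This call was lost without cancer 1 or 3 or control 2 or 3, with adjusted p of 0.056, 0.067, 0.11 and 0.086 from limma, and the fold change stayed negative in each. It was also lost with median-of-ratios scaling (adjusted p = 0.054), quantile normalization (0.063), the replicate block (0.098) and the worst case of rounding (0.063 from limma).
The ratio of the DP partners separated the groups. The log2 ratio of Tfdp1 to Tfdp2 was 2.75 ± 0.38 (SD, n = 5) in the cancers and 1.21 ± 0.36 (SD, n = 3) in the controls, a difference of 1.54 or 2.91-fold (exact permutation p = 0.018, adjusted p = 0.036). Tfdp2 made up 23.3%, 33.3% and 31.6% of DP transcripts in the controls and 8.75% to 15.9% in the cancers. The DP sum was 49 to 80 FPKM in the cancers and 38 to 43 in the controls. The DP sum was thus above the sum of the pocket proteins in every sample, on a scale corrected for transcript length.

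**Figure D2:**
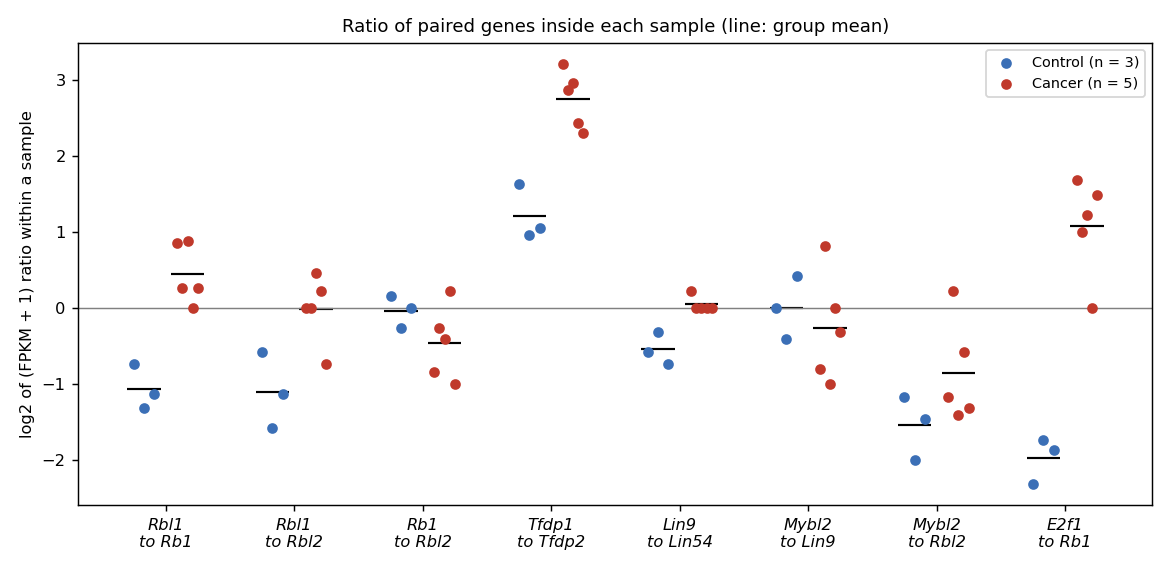
Log2 ratio of (FPKM + 1) of each gene pair inside each sample, with the 3 controls in blue, the 5 cancers in red and a line at each group mean. The groups do not overlap for Rbl1 to Rb1, Tfdp1 to Tfdp2, Lin9 to Lin54 and E2f1 to Rb1.

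Lin9 and Lin54 were low in both groups. Lin9 (chromosome 1, 180641150 to 180690694), a subunit needed for activation of mitotic genes, had 6, 3, 5, 3 and 4 FPKM in cancers 1 to 5, against 3, 3 and 2 in controls 1 to 3. Its log2 fold change was 0.48 ± 0.23 (SE, n = 5 and 3, 95% interval -0.060 to 1.02, limma adjusted p = 0.14). Lin54 (chromosome 5, 100441918 to 100500639), the subunit that binds the CHR motif, had 5, 3, 5, 3 and 4 FPKM in cancers 1 to 5, against 5, 4 and 4 in controls 1 to 3, with overlapping groups. Its log2 fold change was -0.11 (95% interval -0.56 to 0.34, limma adjusted p = 0.67). Lin9 and Lin54 were equal in 4 of 5 cancers, whereas Lin54 was above Lin9 in every control. The log2 ratio of Lin9 to Lin54 differed by 0.59 (exact permutation p = 0.018, adjusted p = 0.036), but these are steps of 1 to 2 FPKM. With every value moved by 0.5 FPKM against the difference, which the rounding allows, the ratio differed by -0.034.

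Mybl2 (chromosome 2, 163054687 to 163084688) had 3, 6, 2, 3 and 3 FPKM in cancers 1 to 5, against 3, 2 and 3 in controls 1 to 3. Cancer 2 lay above the range of the controls and the other cancers within it. The fitted log2 fold change was 0.22 ± 0.27 (SE, n = 5 and 3, 95% interval -0.41 to 0.85, limma adjusted p = 0.55), an interval that leaves room for a rise of up to 0.85 or a fall of up to 0.41. It was 0.035 without cancer 2 and 0.079 without control 2. These values and the interval hold for the deposited FPKM. With TPM the log2 fold change was 1.02 (limma adjusted p = 0.018), where the median of all tested genes was 0.81. With quantile normalization it was -0.098 (limma adjusted p = 0.83). The ratio of Mybl2 to Lin9 differed by -0.26 (exact permutation p = 0.66, adjusted p = 0.66), with a range of -0.53 to -0.057 when each sample was left out, and its ratio to Rbl2 by 0.69 (exact permutation p = 0.18, adjusted p = 0.24). The mitotic genes that B-MYB and MuvB act on followed another order among the cancers. Their mean log2(FPKM + 1) was highest in cancer 1 (4.01) and cancer 3 (3.98), where Mybl2 had 3 and 2 FPKM, and was 3.49 in cancer 2, where Mybl2 had 6. In cancers 4 and 5 the mean was 2.86 and 3.18, with Mybl2 at 3 in both. Cancer 4 lay below control 1 (2.91), so this mean overlapped between the groups. The Mybl2 values are low and rounded, and the order was not tested.

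**Figure D3:**
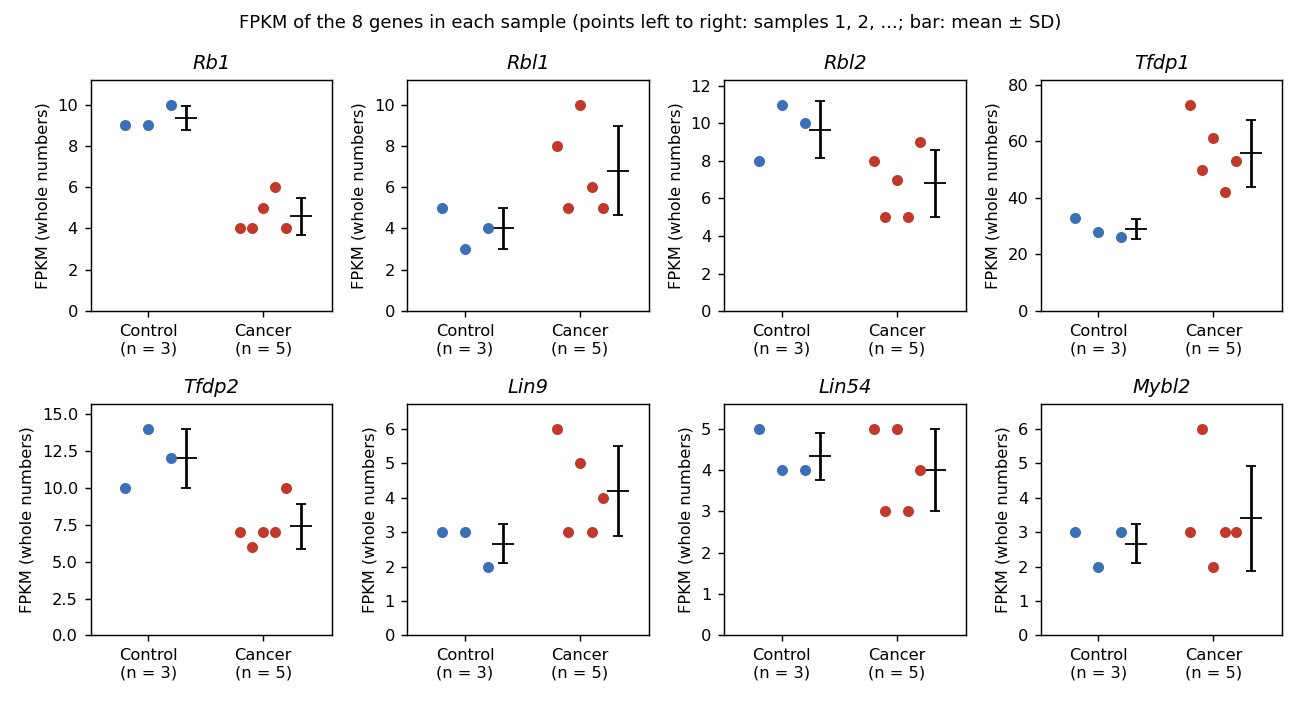
FPKM of the 8 genes, with 1 point per sample (controls in blue, cancers in red, sample numbers running left to right) and the mean ± SD of each group beside the points. Rb1 and Tfdp1 separate the groups without overlap, Tfdp2 touches at 10 FPKM, and Lin54 and Mybl2 overlap, with cancers 2 and 4 below the controls for Lin54 and cancer 2 above them for Mybl2.

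Levels ordered the 8 genes differently in the 2 groups. In the controls the mean FPKM ran from Tfdp1 (29.0) through Tfdp2 (12), Rbl2 (9.67), Rb1 (9.33), Lin54 (4.33) and Rbl1 (4) to Lin9 and Mybl2 (both 2.67). In the cancers it ran from Tfdp1 (55.8) through Tfdp2 (7.40), Rbl1 and Rbl2 (both 6.80), Rb1 (4.6), Lin9 (4.20) and Lin54 (4) to Mybl2 (3.40). Samples of neighbours in either order overlapped, except at Tfdp1 against Tfdp2 in both groups and at Rb1 against Lin54 in the controls. The order is a description, with no test.
By the mean absolute difference of centred log2(FPKM + 1) values over the 8 samples, the 5 genes most like Rb1 among 9137 with a mean FPKM of at least 5 were Arhgap24, Spire1, Pkm, Ube4a and Rab10, at 0.088 to 0.11. Pkm, the pyruvate kinase of muscle and tumor type, had 279 to 447 FPKM in the cancers and 620 to 791 in the controls. The 5 most like Mybl2, at 0.13 to 0.16, were Fam211a, Sec61g, Gar1, Ahcy and Pold4. None of these 10 genes was a member or on a list of the pathway used here.

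The scaling of the libraries set the direction of several of these changes. Rescaling every library to the same sum (TPM) moved the median log2 fold change of all tested genes to 0.81, and Rb1 then had -0.054 (adjusted p = 0.84), Tfdp2 0.255 (adjusted p = 0.44) and Rbl2 0.41 (limma adjusted p = 0.31). Relative to the median of all genes, Rb1 stood at -0.86 with the deposited FPKM and at -0.86 with TPM. Tfdp1 stood at 0.94 and 1.06 in the same order, Rbl1 at 0.66 and 0.70, Tfdp2 at -0.60 and -0.56 and Rbl2 at -0.43 and -0.40. TPM multiplies each library by 1 factor, so these positions are nearly fixed by its construction and their likeness is no support. Quantile normalization is not of this kind, and there Rb1 stood at -0.89 from the median, Tfdp1 at 1.31, Rbl1 at 0.53, Tfdp2 at -0.53 and Rbl2 at -0.41. Lin9 stood at 0.52 with the deposited FPKM and at 0.21 with quantile normalization, Lin54 at -0.074 and -0.28, and Mybl2 at 0.25 and -0.090, a change of sign. Median-of-ratios scaling moved the median to 0.051 and gave Rb1 -0.80 (adjusted p = 0.010) and Tfdp1 1.0 (limma adjusted p = 0.0075).

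**Figure D4:**
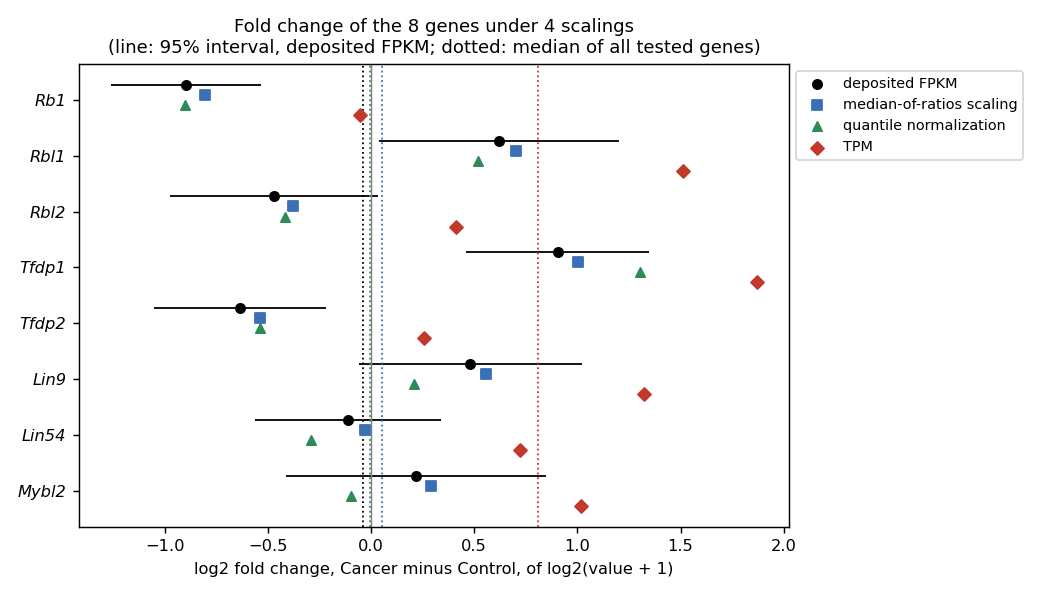
Log2 fold change of each gene, Cancer minus Control, with the deposited FPKM (black, with the 95% interval of limma) and with 3 other scalings. Dotted lines mark the median of all tested genes under each scaling: with TPM it lies at 0.81 and all 8 genes shift to the right with it, so that Rb1 stays left of the median and Tfdp1 right of it.

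The other genes of the pathway were taken from lists, whose counts are read beside the 16.2% of all tested genes called higher and the 18.3% called lower. Without control 1, 2 or 3 these shares were 9.49%, 10% and 10.6% higher and 8.26%, 8.79% and 9.44% lower. Without cancer 3 they were 12% higher and 11.6% lower, so list counts in these fits drop along with the calls of all genes. Of 6 further DREAM and MuvB genes, 2 rose and 0 fell, and the count was 0 without control 2 and 1 without control 1, control 3 or cancer 3. Rbbp4, the histone-binding subunit of MuvB, had 52, 43, 48, 34 and 44 FPKM in cancers 1 to 5, against 28, 26 and 27 in controls 1 to 3 (log2 fold change 0.68, limma adjusted p = 0.013). Foxm1, the factor that joins MuvB in G2, had 9, 5, 6, 3 and 4 against 2, 2 and 2 (log2 fold change 1.02, limma adjusted p = 0.028), and with quantile normalization 0.73 (limma adjusted p = 0.13). The Foxm1 call was also lost without cancer 3 or any 1 of the controls (limma adjusted p of 0.066 to 0.087) and with the replicate block (0.055). Lin37 and Lin52, the remaining core subunits, had log2 fold changes of 0.23 and 0.55, and Dyrk1a, the kinase that starts DREAM assembly, had -0.026, none of them past the threshold. Mybl1, the last gene of this list, had 3, 0, 3, 1 and 2 FPKM in cancers 1 to 5 and 0 in each control. Its log2 fold change, 1.32, was the largest of the list and did not pass the threshold (limma adjusted p = 0.056).
Of 8 E2F factors, E2f1 (log2 fold change 2.16, adjusted p = 0.0028) and E2f7, an atypical repressive E2F (1.30, adjusted p = 0.019), rose and 0 fell in limma. E2f7 had 3, 2, 3, 1 and 2 FPKM against 1, 0 and 0, with overlapping groups, and was not called with quantile normalization (limma adjusted p = 0.094). The count was 1 without control 2 or 3. E2f4, the usual E2F of DREAM, had 17, 28, 17, 20 and 19 FPKM in cancers 1 to 5, against 32, 26 and 31 in controls 1 to 3 (log2 fold change -0.55, limma adjusted p = 0.051). E2f4 passed with a mean FPKM of at least 5 (adjusted p = 0.049), with array weights (0.012) and without cancer 2 (0.0088), and with TPM it had 0.39 (limma adjusted p = 0.066).
Of 15 kinases, cyclins and inhibitors that act on the pocket proteins, 4 rose and 3 fell. Without cancer 3 or any 1 of the controls 1 fell, where 8.26% to 11.6% of all tested genes were called lower. The 4 that rose were all inhibitors, Cdkn2a, Cdkn2c, Cdkn2d (log2 fold change 2.10) and Cdkn1b (1.58). Those that fell were the inhibitors Cdkn2b (-1.36) and Cdkn1a (-1.94) and the cyclin Ccnd2. Cdkn2a, which encodes p16INK4a and p19ARF, was listed at 0 in every control and had 65, 58, 85, 29 and 62 FPKM in the cancers. Cdkn2c, another inhibitor of CDK4 and CDK6, had 67, 35, 88, 38 and 56 against 10, 10 and 12 (log2 fold change 2.23, limma adjusted p = 0.0027). Ccnd2, a D-type cyclin, fell to between 4 and 12 FPKM, from 52, 38 and 27 in controls 1 to 3 (log2 fold change -2.19, limma adjusted p = 0.0045).

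Of the genes on which the pocket proteins and MuvB act, most of the replication list and 12 of 25 of the mitotic list rose, where 16.2% of all tested genes were called higher. Of 25 E2F targets of DNA replication, 17 rose, 0 fell and 8 did not pass, with a median log2 fold change of 0.87. Prim1, the DNA primase (1.79, adjusted p = 0.0077), Mcm2, a subunit of the replicative helicase (1.57, adjusted p = 0.0040), and Cdc45, a partner of that helicase (1.45, adjusted p = 0.013), rose most in limma. Of 25 mitotic genes, 12 rose, 0 fell and 13 did not pass, with a median of 1.04. Ndc80 of the kinetochore (1.88, adjusted p = 0.0087), the ubiquitin carrier Ube2c (1.47, adjusted p = 0.021) and Cdk1 (1.45, adjusted p = 0.014) rose most in limma. Without control 1, 2 or 3 the replication count was 12, 9 or 9 and the mitotic count 5, 1 or 1, where 9.49% to 10.6% of all tested genes were called higher. Without cancer 1, 2 or 3 the mitotic count was 4, 6 or 3, and without cancer 4 it was 18, where 13.6%, 17.1%, 12% and 16.3% of all tested genes were called higher in the same order, so without cancer 1 or 3 the count lay near that share. With TPM, by which 50% of all tested genes were called higher and 3.68% lower, 22 replication and 25 mitotic genes rose and 0 fell, as did 6 of 6 further DREAM and MuvB genes and 6 of 8 E2F factors, while 9 of the 15 kinases, cyclins and inhibitors rose and 1 fell.

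**Figure D5:**
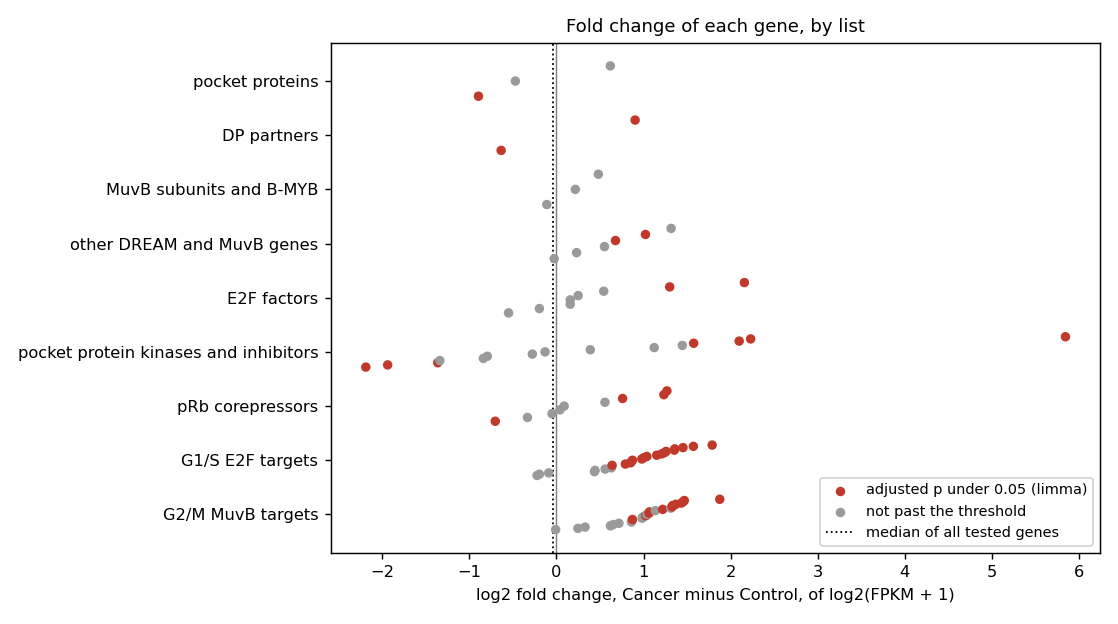
Log2 fold change of every gene of each list, Cancer minus Control, on the log2(FPKM + 1) scale. Red points had an adjusted p under 0.05 in limma, and the dotted line is the median of all tested genes. The DP partners and the pocket proteins spread to both sides of it, while 17 of 25 replication genes and 12 of 25 mitotic genes are red and to its right.

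Summed markers of several other cell types differed between the groups or among the cancers, and most single markers other than the neuroendocrine ones were not called. Markers of gastric mucous cells summed to 146212 to 214340 FPKM in the controls and to 691, 72677, 5226, 46224 and 15908 in cancers 1 to 5, with 1 of 6 called lower. Cancer 4, with 46224, had the highest Rb1 of the cancers (6 FPKM and 35.3% of the pocket proteins) and the lowest Tfdp1 (42). Cancer 2, with the highest sum of 72677, had 4 FPKM of Rb1 (28.6%) and 50 of Tfdp1. Cancer 1, with 691, had a Rb1 share of 20% and the highest Tfdp1 (73). Markers of squamous epithelium summed to 1533 to 2572 in the controls and to 0 to 1588 in the cancers, and those of parietal and chief cells to 10530 to 35384 and 3 to 9342, with 1 of 5 and 0 of 4 called lower. All 6 neuroendocrine markers were higher in the cancers, with sums of 8015 to 17801 against 125 to 188. Macrophage and endothelial markers summed to 9 to 27 and 11 to 37 in the cancers and to 8 and 4 to 8 in the controls, with 1 of 3 and 2 of 3 called higher. Fibroblast markers summed to 61 to 310 and 68 to 127, with 0 of 5 called, and smooth muscle markers to 21 to 851 and 192 to 265, with 0 of 4 called. Hepatocyte markers reached 445 in cancer 5 and 58 or less elsewhere, with Fga, Fgg and Apoh listed at 0 in the controls. Their part in the changes of the 8 genes was not tested. With each cancer left out in turn, the log2 fold change ran from -0.98 to -0.86 for Rb1 and from 0.80 (without cancer 1) to 0.998 (without cancer 4) for Tfdp1, all past the threshold in limma.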

How the data were processed

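RNA of 5 SCJ cancers and 3 control SCJ samples was sequenced from poly(A) libraries, directional per the labels. The authors trimmed reads with cutadapt 1.8 and aligned them with TopHat2 2.0.13 (submitters' processing notes), quantified mm10 genes with cuffquant and normalized them with Cuffnorm 2.2.1. The deposited values are FPKM rounded to whole numbers by the authors (100% were whole), so they were handled as a score, never as counts of reads; the depth per library is unknown.

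Genes reaching 1 FPKM in 3 or more samples entered a limma 3.58.1 fit of log2(FPKM + 1) (eBayes with trend) in R 4.3.3, threshold 0.05 after Benjamini-Hochberg adjustment. The fit was tested on simulated data. Gene pairs were compared by exact permutation over 56 splits. All 141 list entries were matched, 1 by an older symbol. Positions are from GENCODE M21 (GRCm38, the build of mm10), and promoters from RefSeq. Alternatives were a pseudocount of 0.1, filters, TPM, other scalings, array weights, eBayes with no trend, a replicate block, a worst case of rounding by 0.5 FPKM and leaving out each sample.

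Genes named were the 8 members, Trp53, the other genes of the pairs, the 3 genes of each list with the largest changes past the threshold, and the 5 genes most like Rb1 and Mybl2. Lpar6, Aktip, Rcbtb2, E2f4, Lin37, Lin52, Dyrk1a, Mybl1, Cdkn2d, Cdkn1b, Cdkn2b, Cdkn1a, Smarca4, Hdac1, Kdm5a and Arid4a were named after their values were seen. The members and lists were chosen with earlier results of these data known. One further list of cell type markers is not reported here.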

Additional observations from a re-analysis of the deposited data

Results flagged for a closer look

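Among the 5 cancers, 4 of 25 sets of values had 1 sample far from the others by its gap divided by the range, where chance gives about 1.25. That number holds for continuous values in separate sets. These values are rounded with many ties and the sets share genes, so the 4 cannot be weighed against it. Tfdp2 was highest in cancer 5 at 10 FPKM, while the remaining cancers lay at 6 to 7 (gap of 0.75 of their range). Mybl2 was highest in cancer 2 at 6 FPKM, against 2 to 3 (gap of 0.75). The log2 ratio of Lin9 to Lin54 was 0.22 in cancer 1 and 0 in the other cancers (gap of 1.0), which is a step of 1 FPKM. The mean log2 level of the kinases, cyclins and inhibitors that act on the pocket proteins was 4.22 in cancer 2, against 3.89 to 3.98 (gap of 0.713).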

How the results depend on the processing

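Of the 8 genes, 3 were called in the fit as reported, 6 with array weights (3 higher, 3 lower) and 4 with TPM (4 higher, 0 lower). Leaving out each sample gave 2 to 3. With array weights 27.2% of all tested genes were called higher and 29.5% lower, and with TPM 50% and 3.68%. The count of all genes changed was 4948 (2326 higher, 2622 lower). It was 7704 with TPM (7176 higher, 528 lower), 8148 with array weights and 1534 with the replicate block (982 higher, 552 lower), and ran from 2548 to 5232 when each sample was left out (2548, 2700 and 2874 without control 1, 2 and 3). With TPM the log2 fold changes were -0.054 for Rb1, no longer past the threshold, 1.32 for Lin9, 1.02 for Mybl2 and 1.51 for Rbl1, now past it, and 0.72 for Lin54, 0.41 for Rbl2 and 0.255 for Tfdp2, reversed and not past it. With array weights Lin9 (0.50), Rbl1 (0.94) and Rbl2 (-0.50) passed and Lin54 reversed to 0.041. Tfdp2 was not past the threshold with median-of-ratios scaling (-0.54), quantile normalization (-0.54), the replicate block (-0.75) or the worst case of rounding (-0.49), and ran from -0.75 to -0.53 when each sample was left out. Mybl2 reversed with quantile normalization (-0.098) and the worst case of rounding (-0.16), and the latter also reversed Lin54 (0.17) and the ratios of Lin9 to Lin54 (-0.034) and Mybl2 to Lin9 (0.46). The ratio of Lin9 to Lin54 ran from 0.498 to 0.71 without each sample. With fewer samples the exact test has little room to pass, so these ratios are given as values with no test. The ratios of Rbl1 to Rb1, Tfdp1 to Tfdp2 and E2f1 to Rb1 stayed past the threshold with a pseudocount of 0.1 and the worst case of rounding (TPM leaves them nearly as they are by construction), and Tfdp1 stayed past it in every fit run. With a mean FPKM of at least 5, Lin9, Lin54 and Mybl2 were not tested. Of the 25 mitotic genes, 12 rose as reported, 22 with array weights, 25 with TPM and 7 with the replicate block, and of the 25 replication genes 17 rose as reported and 6 with the block. Of the 6 further DREAM and MuvB genes, 2 rose as reported, 6 with TPM, 4 with array weights, 1 with quantile normalization and 0 with the block. Of the 8 E2F factors, 2 rose and 0 fell as reported, 6 and 0 with TPM, 3 and 1 with array weights, 2 and 1 without cancer 2, 1 and 0 with quantile normalization or the block, and 1 and 1 of 4 tested with a mean FPKM of at least 5. Of all tested genes 50% were called higher with TPM, 27.2% with array weights and 6.84% with the block, and 3.68%, 29.5% and 3.84% lower in the same order. With quantile normalization 13.2% were called higher and 13.2% lower. With a mean FPKM of at least 5 the shares were 13.6% and 24.9%, and without cancer 2 they were 17.1% and 19.3%. Of the 15 kinases, cyclins and inhibitors, 4 rose and 3 fell as reported, 7 and 6 with array weights, and 5 and 1 with the block. Causes were not tested.

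Replicate numbers do not pair the samples: deviations of same-numbered samples correlated at -0.021, -0.19 and -0.10. With the replicate block, Rb1 and Tfdp1 stayed called and Tfdp2 was lost.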

Other observations

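Of 9 corepressors that pRb brings to chromatin, 3 rose and 1 fell, near the 34.5% of all tested genes called. Suv39h1, a histone H3 lysine 9 methyltransferase, had 9, 7, 9, 7 and 12 FPKM in the cancers and 3 in each control (log2 fold change 1.27 ± 0.18 SE, limma adjusted p = 0.0032). Rbbp7, a histone-binding relative of Rbbp4, had 175, 116, 183, 106 and 144 FPKM against 75, 60 and 47 (log2 fold change 1.23, limma adjusted p = 0.0086). Smarca2 and Smarca4 encode the alternative ATPases of the SWI/SNF chromatin remodeler. Smarca2 (BRM) had 17, 10, 18, 20 and 19 FPKM in cancers 1 to 5, against 8, 11 and 9 in controls 1 to 3 (log2 fold change 0.76, limma adjusted p = 0.040), and cancer 2 overlapped the controls. The call of Smarca2 was lost in each fit without 1 sample (limma adjusted p of 0.068 to 0.13) other than that without cancer 2. Smarca4 (BRG1) had 22, 24, 18, 22 and 21 FPKM against 35, 35 and 36 (log2 fold change -0.70 ± 0.12 SE, limma adjusted p = 0.0052). With TPM 5 of the 9 genes rose and 0 fell, where 50% of all tested genes were called higher, and Smarca4 turned to 0.24 (limma adjusted p = 0.23). Smarca4 was also not called with quantile normalization (-0.36) or the replicate block (-0.71). Hdac1 (-0.051), Kdm5a (0.088) and Arid4a (0.040) had log2 fold changes close to that of all tested genes, and none passed the threshold.

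The other gene targeted in these mice, Trp53, had 12, 22, 12, 30 and 12 FPKM in cancers 1 to 5, against 16, 17 and 19 in controls 1 to 3. Its log2 fold change was -0.077 (limma adjusted p = 0.87), and with TPM 0.86 (limma adjusted p = 0.020), where the median of all genes was 0.81. Cancers 2 and 4, which were above every control, were also the cancers with the highest sums of gastric mucous cell markers. Rcbtb2, which overlaps the 3′ end of Rb1 on the opposite strand, had 8, 5, 8, 8 and 6 FPKM in cancers 1 to 5, against 6, 6 and 3 in controls 1 to 3 (log2 fold change 0.44, limma adjusted p = 0.19).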
